A study of Mus musculus with 15 samples.

Results

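Mitochondria hold their own ribosomes, which translate the few messenger RNAs of the mitochondrial genome into membrane-bound subunits of the respiratory chain and the ATP synthase. The RNAs of these ribosomes are mitochondrial, but every protein of their small and large subunits is encoded in the nucleus, made in the cytoplasm and imported. T cells that are activated raise mitochondrial mass and mitochondrial translation, and regulatory T cells rely on respiration. The nuclear genes for these proteins are named Mrps for the small subunit and Mrpl for the large one. The 77 genes described here are all those of the deposited table whose symbol starts with Mrps or Mrpl and a digit, without pseudogenes, of 17594 genes in all. By common knowledge of the structure, 26 of them belong to the small subunit and 50 to the large one, Mrps18a and Mrps30 being large subunit proteins in spite of their names. The remaining gene, Mrps36, is now known as a subunit of the alpha-ketoglutarate dehydrogenase complex and was kept because its symbol fits.

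RNA was sequenced from CD4+ T cells sorted from spleens of mice on the C57BL/6 background. Regulatory T cells (Treg) were measured in 4 libraries from control animals labelled wild-type (WT) and in 4 from animals labelled HPGD KO, and conventional T cells (Tconv) in 3 WT and 4 KO libraries. KO animals carry a conditional allele of Hpgd, which encodes the enzyme that inactivates prostaglandin E2, together with a Cre-YFP driven from Foxp3, so that recombination is directed at cells that express Foxp3, the Treg. No further treatment is named. The sources used here give neither the age of the animals nor whether controls carry Cre, nor which libraries share an animal, so p-values measure the spread between libraries.

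Library sizes, in units of 1e6 reads, were 6.43 to 10.0 for Treg WT, 2.64 to 4.71 for Treg KO, 6.60 to 11.1 for Tconv WT and 2.95 to 10.3 for Tconv KO. Foxp3, the lineage factor of Treg, had a mean normalized read count of 4502 ± 369 (SD, n = 4) in Treg WT, 4046 ± 541 (SD, n = 4) in Treg KO, 17.1 ± 3.14 (SD, n = 3) in Tconv WT and 40.8 ± 22.5 (SD, n = 4) in Tconv KO. Hpgd had 1 read in all 15 libraries together, so that its loss could not be checked. Xist, which is expressed from the inactive X chromosome, had at most 5.52 normalized counts in every WT library and at least 8644 in every KO library, and the Y-linked Ddx3y had 0 in every KO library, so that genotype, sex and the 2 runs of sample numbers cannot be told apart. Markers of B cells summed to 151 to 226 in Treg WT, 218 to 287 in Treg KO, 136 to 182 in Tconv WT and 62.2 to 327 in Tconv KO. Markers of CD8 T and NK cells summed to 133 to 169 in Treg WT and 173 to 218 in Treg KO, with Ncr1 at 0 in both, and to 435 to 530 in Tconv WT and 436 to 1014 in Tconv KO. Tconv KO replicate 1 had the highest sum of both lists. Myeloid markers summed to at most 29.6 and erythroid and platelet markers to at most 30.2 in any library. Of the markers tested in Treg KO against WT, 0 of 2 B cell and 0 of 4 CD8 T and NK cell genes passed, 2 of 9 CD4 and Treg genes rose, 0 of 1 myeloid genes passed, and 1 of 1 erythroid and platelet genes fell. Of all genes tested, 21.5% passed in that comparison. The part of these markers in the results below was not tested.

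To show the start of the genes on which the results turn, the 250 bases before the RefSeq start site are printed for 3 genes that were lower in Treg KO, for the 2 that were higher there, and for the 1 that differed between Treg and Tconv of WT animals. Sequences are from RefSeq (build GRCm38.p6, the build called mm10), run 5′ to 3′ on the strand of the gene and are in lower case. Capitals mark a match, on either strand, to the letters GCATGCG (core of the nuclear respiratory factor NRF1 motif), CCGGAAG (core of the ETS motif bound by GABP), ATGGCGG (YY1 core) or GGGCGG (SP1 core). They lie at chr7:142532782-142533031 on the plus strand for Mrpl23, chr11:5707702-5707951 on the minus strand for Mrps24, chr1:37890227-37890476 on the plus strand for Mrpl30, chr4:49521084-49521333 on the minus strand for Mrpl50, chr13:14613038-14613287 on the minus strand for Mrpl32 and chr11:97315466-97315715 on the plus strand for Mrpl45.
Mrpl23: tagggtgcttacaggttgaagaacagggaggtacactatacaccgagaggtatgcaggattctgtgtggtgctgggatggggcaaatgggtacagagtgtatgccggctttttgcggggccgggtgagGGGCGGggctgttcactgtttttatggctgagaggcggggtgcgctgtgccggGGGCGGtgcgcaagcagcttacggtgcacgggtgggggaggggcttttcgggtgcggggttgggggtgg
Mrps24: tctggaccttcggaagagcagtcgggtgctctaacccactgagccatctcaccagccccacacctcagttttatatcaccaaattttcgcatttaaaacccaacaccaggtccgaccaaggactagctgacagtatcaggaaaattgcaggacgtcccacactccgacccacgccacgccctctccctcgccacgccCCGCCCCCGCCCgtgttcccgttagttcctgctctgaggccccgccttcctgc
Mrpl30: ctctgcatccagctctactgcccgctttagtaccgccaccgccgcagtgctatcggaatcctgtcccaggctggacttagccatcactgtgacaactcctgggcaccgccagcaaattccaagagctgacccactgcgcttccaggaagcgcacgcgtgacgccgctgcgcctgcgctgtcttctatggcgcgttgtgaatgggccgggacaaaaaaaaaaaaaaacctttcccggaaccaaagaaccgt
Mrpl50: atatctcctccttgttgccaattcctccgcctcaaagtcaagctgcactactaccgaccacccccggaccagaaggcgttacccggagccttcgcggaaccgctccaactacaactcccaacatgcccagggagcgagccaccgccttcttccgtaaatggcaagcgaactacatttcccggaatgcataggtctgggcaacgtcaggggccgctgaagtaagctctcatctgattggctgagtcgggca
Mrpl32: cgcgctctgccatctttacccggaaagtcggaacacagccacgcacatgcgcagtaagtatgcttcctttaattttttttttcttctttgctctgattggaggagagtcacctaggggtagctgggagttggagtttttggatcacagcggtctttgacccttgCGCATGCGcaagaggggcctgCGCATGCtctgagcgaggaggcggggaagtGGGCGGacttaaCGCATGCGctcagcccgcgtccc
Mrpl45: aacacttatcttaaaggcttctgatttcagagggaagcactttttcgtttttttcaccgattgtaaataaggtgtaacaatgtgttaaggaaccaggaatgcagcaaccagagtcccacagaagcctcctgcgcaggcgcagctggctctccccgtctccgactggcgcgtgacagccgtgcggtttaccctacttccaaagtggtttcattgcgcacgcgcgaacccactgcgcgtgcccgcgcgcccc
The Mrpl32 sequence holds 3 runs with the NRF1 core, 2 of them read on both strands, beside an SP1 core. The Mrpl23 and Mrps24 sequences hold 2 SP1 cores each, which stand end to end in Mrps24. The gene spans given below come from GENCODE, and their starts can differ from those of RefSeq. By those spans the Mrpl23 and Mrps24 windows lie wholly inside the gene, and the Mrpl32 and Mrpl50 windows partly. The sequences of Mrpl30, Mrpl50 and Mrpl45 hold none of the 4 cores in these 250 bases. The longer window counted below holds 1 YY1 core for Mrpl50.

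Of the 77 genes, 68 had a promoter in the RefSeq table, counted here from 250 bases before to 50 bases after the start. Among these 68, 35.3% held the ETS core, against 19.8% of the 8614 promoters of genes tested and 9.12% of all 27025 promoters. The YY1 core was in 19.1% of them against 9.03% of genes tested, and the NRF1 core in 11.8% against 7.08%. The SP1 core was in 34 of the 68, against 65.3% of genes tested. Promoters of the cytoplasmic ribosomal proteins held the same letters in 39.7% (ETS), 15.9% (YY1), 6.35% (NRF1) and 60.3% (SP1). At least 1 of the first 3 cores was found in 35 of the 68 promoters. A match describes the letters only.

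All 77 genes were detected in every library, the lowest normalized read count being 12.9 for Mrps12 in 1 Treg KO library, and all passed the filter for testing (3 or more libraries with a value of 10 or above). Divided by transcript length, the mean level over the 15 libraries ranged from 13.2 to 468 normalized counts per kb, a 35.3-fold range with a median of 86.1. Mrpl52 (468 per kb), found only in mitochondrial ribosomes, Mrpl24 (418 per kb), a homolog of a bacterial large subunit protein, and Mrps21 (310 per kb), a homolog of a bacterial small subunit protein, were the 3 highest. Mrpl48 (13.2 per kb), Mrpl47 (14.7 per kb) and Mrpl17 (15.1 per kb) were the 3 lowest. The median level per kb was 94.4 for the 50 large subunit genes and 68.5 for the 26 small subunit genes. Levels per kb depend on the length of the 1 transcript taken for each gene. Mrpl17, taken at 7300 bases, had a mean normalized read count of 110, beside a family median of 129. The group means of Mrpl24 ran from 408 per kb in Tconv KO to 442 per kb in Tconv WT.

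**Figure D1:**
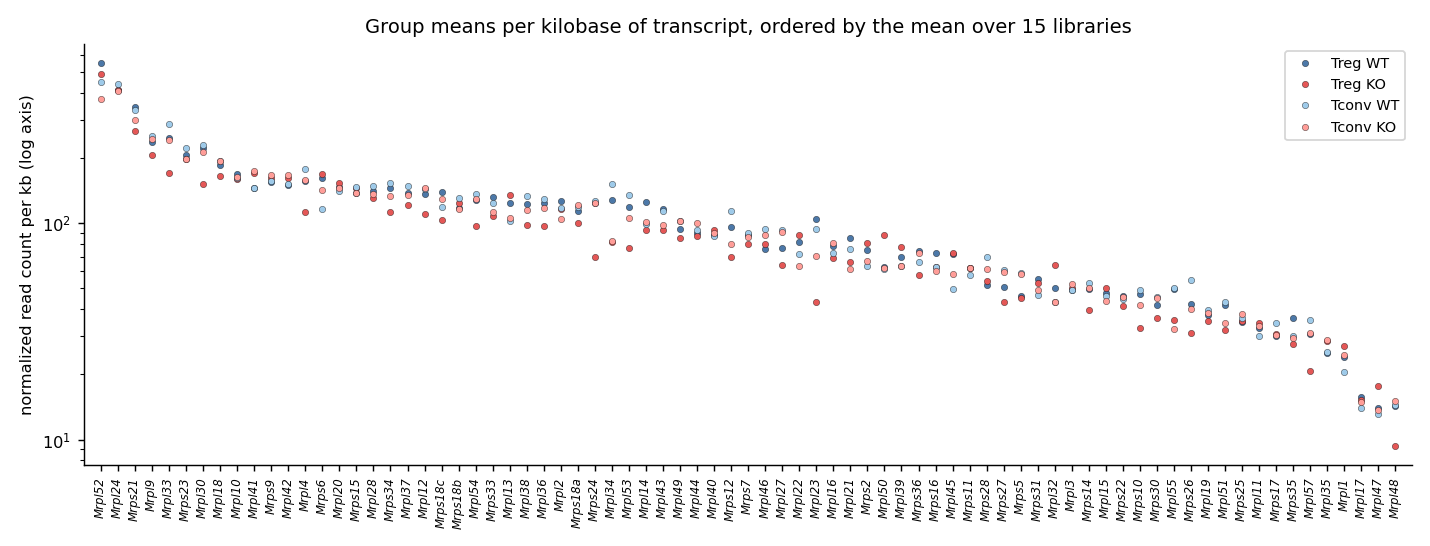
Group mean of the normalized read count per kilobase of transcript (log axis) for each of the 77 genes, ordered by the mean over 15 libraries. Each dot is the mean of the 4 libraries of a group (3 for Tconv WT), and for most genes they lie close together beside the 35.3-fold range between genes.

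The scatter of a gene between libraries of 1 group was small in WT and larger in KO. The median coefficient of variation of the 77 genes was 9.1% in Treg WT, 7.36% in Tconv WT, 17.0% in Treg KO and 12.4% in Tconv KO. Except for Tconv KO replicate 4, every KO library was shallower than every WT library. The part of depth in this scatter was not tested. Mrpl23, the gene that fell the most in Treg KO, rested on 90 to 117 reads per library in Treg WT and on 17 to 24 in Treg KO.

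Treg of KO animals were compared with Treg of WT animals, the cells at which the Foxp3-driven Cre is directed. On the log2 scale 44 of the 77 genes (57.1%) lay within 0.25 of no change, near the 53.7% of all genes tested. Of the 77, 11 passed the test (limma, Benjamini-Hochberg adjusted p under 0.05), 9 lower and 2 higher in KO. That is 14.3% of the family, against 21.5% of all 11314 genes tested (10.4% higher and 11.1% lower). The median log2 fold change of the 77 was -0.16, against -0.00031 over all genes tested, and 53 of the 77 estimates were below 0. Without the shallowest library, Treg KO replicate 3, 8 genes passed, 6 lower and 2 higher, with a median of -0.12. Leaving out each Treg library in turn gave 6 to 16, with 6 without Treg WT replicate 1, 2 or 4, 7 without Treg WT replicate 3 and 16 without Treg KO replicate 2. By subunit, 3 of 26 small subunit genes fell and 0 rose (median -0.16), and 6 of 50 large subunit genes fell and 2 rose (median -0.15). Genes that fell were 2 of 15 small and 4 of 30 large subunit genes with a bacterial homolog, and 1 of 11 small and 2 of 20 large subunit genes found only in mitochondria.

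**Figure D2:**
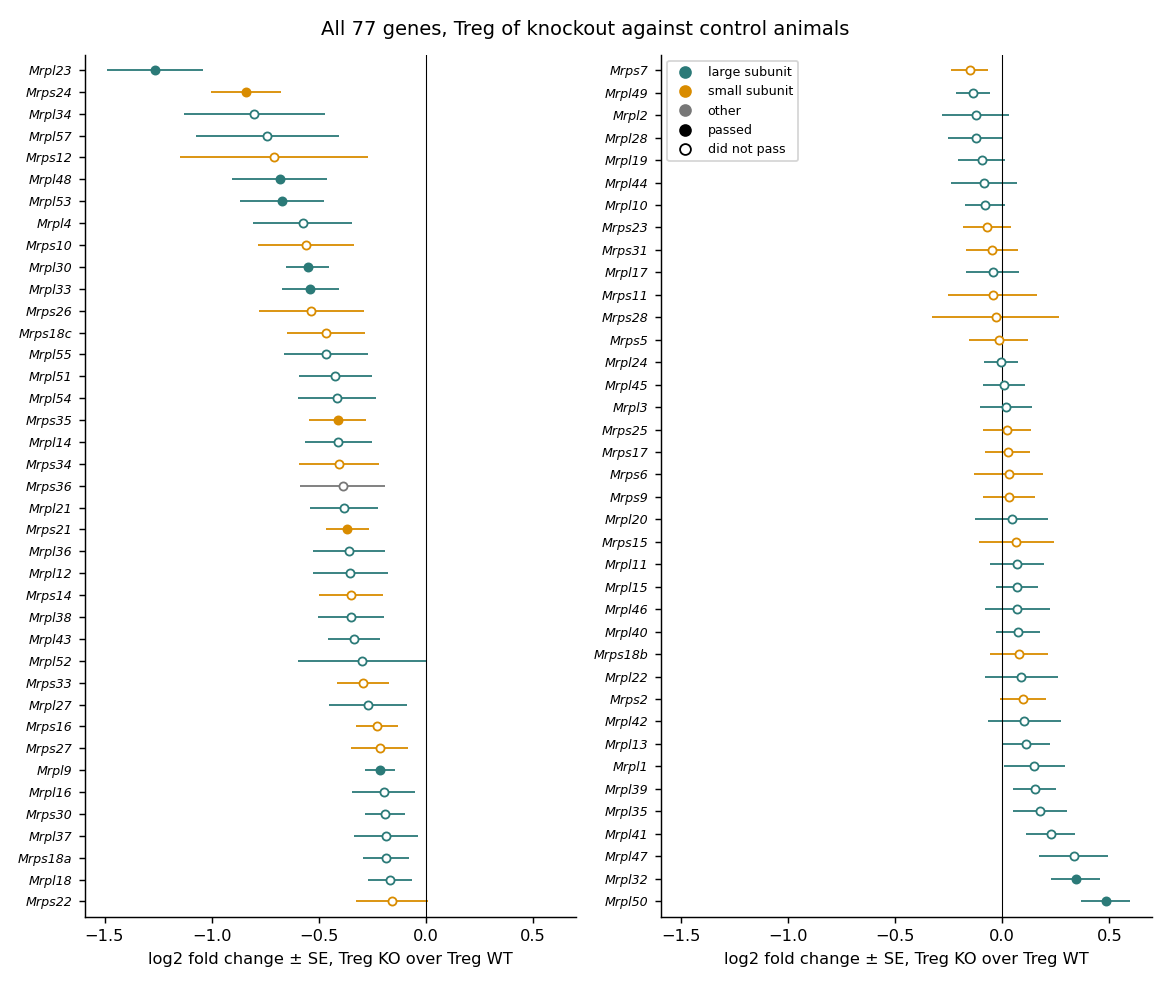
Log2 fold change ± SE (horizontal axis) of each of the 77 genes in Treg KO over Treg WT, ordered from the lowest to the highest and coloured by subunit. Filled dots passed the test: 9 genes to the left of 0, led by Mrpl23 and Mrps24, and Mrpl32 and Mrpl50 to the right.

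Mrpl23, a homolog of a bacterial protein at the exit of the ribosomal tunnel, fell the most. The gene lies on chromosome 7 from 142532686 to 142540747 on the plus strand. Its normalized read counts were 73.3, 67.6, 68.1 and 79.8 in Treg WT and 29.0, 21.8, 36.6 and 32.1 in Treg KO. All 4 KO libraries lay below all 4 WT libraries, at 0.416 of the WT level (log2 fold change -1.27 ± 0.22 SE, limma adjusted p = 0.00196). In Tconv it was 66.0, 68.0 and 61.9 in WT and 43.7, 28.5, 69.0 and 53.4 in KO, so that those groups overlapped (log2 fold change -0.48 ± 0.24 SE, limma adjusted p = 0.44).

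Mrps24 encodes the counterpart of a bacterial small subunit protein at the entry of the messenger RNA (chromosome 11, 5703983 to 5715680, minus strand). It had 110, 146, 112 and 126 normalized read counts in Treg WT and 68.2, 77.6, 49.6 and 81.6 in Treg KO. The groups did not overlap, and the KO level was 0.559 of the WT level (log2 fold change -0.84 ± 0.16 SE, limma adjusted p = 0.00332). Urgcp overlaps it on the same strand and differed by -0.07 ± 0.09 (SE) in the same comparison (limma adjusted p = 0.62). In Tconv, Mrps24 had 119, 118 and 142 in WT and 99.6, 115, 144 and 133 in KO, with overlap (log2 fold change -0.04 ± 0.18 SE).

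Mrpl30, a large subunit protein with a bacterial homolog (chromosome 1, 37890477 to 37898535, plus strand), had the tightest control values of the genes that fell by more than 0.5. They were 209, 212, 222 and 220 in Treg WT and 120, 152, 157 and 162 in Treg KO. Every KO library lay below every WT library (0.682 of the WT level, log2 fold change -0.55 ± 0.10 SE, limma adjusted p = 0.00222). Mrpl23, Mrps24 and Mrpl30 passed under each of the 21 other settings run for this comparison.

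Mrpl33, the homolog of a small bacterial large subunit protein (chromosome 5, 31596935 to 31664384, plus strand), had 121, 128, 111 and 113 in Treg WT and 76.9, 65.5, 90.5 and 93.6 in Treg KO. Again no KO library reached the lowest WT library (log2 fold change -0.54 ± 0.13 SE, limma adjusted p = 0.0113). Rbks overlaps it on the opposite strand and had a log2 fold change of -0.39 ± 0.20 (SE), limma adjusted p = 0.17. The Mrpl33 call was lost when a trend with transcript length was removed (log2 fold change -0.15, limma adjusted p = 0.51).

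The 2 genes that rose are large subunit genes. Mrpl50, found only in mitochondrial ribosomes (chromosome 4, 49512596 to 49521093, minus strand), had 119, 138, 138 and 136 in Treg WT and 174, 156, 215 and 201 in Treg KO. The groups did not overlap (1.40-fold, log2 fold change 0.48 ± 0.11 SE, limma adjusted p = 0.00935). Mrpl32 (chromosome 13, 14608184 to 14613165, minus strand), whose precursor is cut by the m-AAA protease of the inner membrane before assembly, had 150, 155, 162 and 136 in Treg WT and 242, 172, 166 and 193 in Treg KO. Its lowest KO library stood just above its highest WT library, and 1 KO library stood well above the rest (1.27-fold, log2 fold change 0.34 ± 0.11 SE, limma adjusted p = 0.0431). Without that library, Treg KO replicate 1, the fold change of Mrpl32 was 0.23 and did not pass (limma adjusted p = 0.11). With a trend on GC content removed, the family had 13 genes lower and 0 higher, and with reads thinned to 1 depth 8 lower and 0 higher, in place of 9 and 2. Those 13 are 16.9% of the family against 13.4% of all genes, and the 8 are 10.4% against 15.4%, so that the family's share lay above that of all genes in the first setting and below it in the second. Mrpl32 then stood at 0.12 (limma adjusted p = 0.61) and 0.47 (limma adjusted p = 0.0544). Mrpl50 then stood at 0.26 (limma adjusted p = 0.0761) and 0.44 (limma adjusted p = 0.0840).

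**Figure D3:**
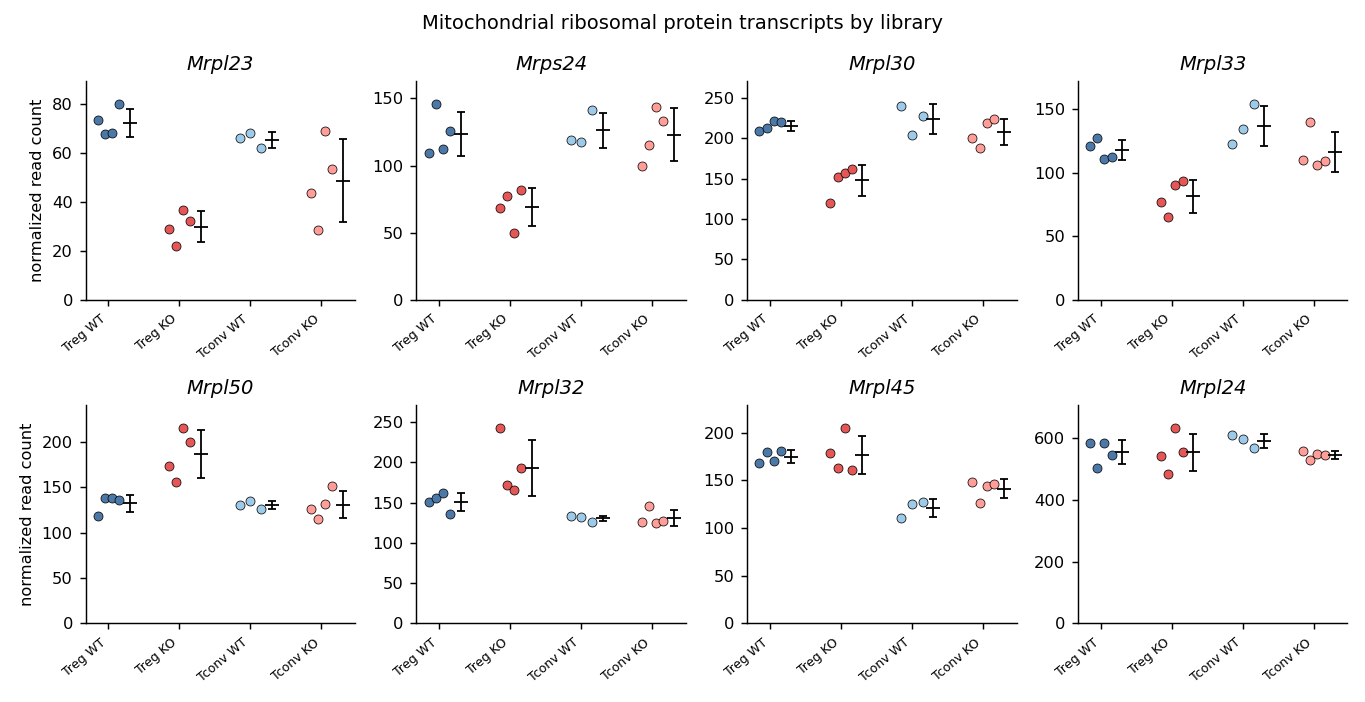
Normalized read count (vertical axis, from 0) of 8 genes in each library, with the group mean and SD beside the dots. Treg KO libraries lie below Treg WT for Mrpl23, Mrps24, Mrpl30 and Mrpl33 and above for Mrpl50 and Mrpl32, Mrpl45 is higher in Treg than in Tconv, and Mrpl24 overlaps between the 2 Treg groups.

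The remaining 5 genes that fell were Mrpl48, Mrpl53, Mrps35, Mrps21 and Mrpl9. Mrpl53, found only in mitochondria (chromosome 6, 83109040 to 83109939, plus strand), had 82.2, 71.7, 85.5 and 91.3 in Treg WT and 69.6, 65.5, 36.6 and 41.5 in Treg KO (log2 fold change -0.67 ± 0.20 SE, limma adjusted p = 0.0259). Mrps21, one of the 3 most abundant genes per kb (chromosome 3, 95862634 to 95871519, minus strand), had 158, 174, 158 and 183 in Treg WT and 135, 136, 121 and 130 in Treg KO (log2 fold change -0.37 ± 0.10 SE, limma adjusted p = 0.0193). In both, the groups were separate.

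Mrpl48, part of the central protuberance of the large subunit, had 63.7, 64.8, 56.4 and 61.2 in Treg WT and 60.9, 42.5, 23.7 and 33.4 in Treg KO (log2 fold change -0.68 ± 0.22 SE, limma adjusted p = 0.0395). Mrps35, a mitochondria-specific small subunit protein, had 164, 163, 144 and 134 in Treg WT and 85.6, 141, 116 and 116 in Treg KO (log2 fold change -0.41 ± 0.13 SE, limma adjusted p = 0.0382). Mrpl9, a large subunit protein with a bacterial homolog, had 395, 390, 362 and 394 in Treg WT and 319, 366, 306 and 340 in Treg KO (log2 fold change -0.21 ± 0.07 SE, limma adjusted p = 0.0409). In these 3 genes 1 KO library reached into the WT range.

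These calls and that of Mrpl32 depended on single libraries and on the method. Of the 8 fits that left out 1 Treg library, Mrpl32, Mrpl48, Mrps35 and Mrpl9 passed in 2 each, Mrpl53 in 3 and Mrps21 in 6, whereas Mrpl23, Mrps24, Mrpl30, Mrpl33 and Mrpl50 passed in all 8. Leaving out any of these libraries but Treg KO replicate 2 ended at least 1 call, with limma adjusted p from 0.0508 to 0.12. Without Treg KO replicate 3, the shallowest library, Mrpl48 had a log2 fold change of -0.47 (limma adjusted p = 0.11) and Mrpl53 one of -0.51 (limma adjusted p = 0.0735). Without Treg WT replicate 2, Mrps21 stood at -0.35 (limma adjusted p = 0.0515), and without Treg WT replicate 4 at -0.33 (limma adjusted p = 0.0617). Without Treg WT replicate 1, Mrps35 stood at -0.37 (limma adjusted p = 0.11) and Mrpl9 at -0.20 (limma adjusted p = 0.10). With the length trend removed, Mrpl9 stood at -0.11 (limma adjusted p = 0.24) and Mrpl53 at -0.37 (limma adjusted p = 0.15), and with the GC trend removed Mrpl53 had an adjusted p of 0.0502 in limma. Mrpl48 did not pass in edgeR (adjusted p = 0.0504), Mrpl9 not in DESeq2 (adjusted p = 0.0564) and Mrps35 not after quantile normalization (limma adjusted p = 0.0760).

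Several genes of known function did not pass in Treg. Mrpl12, the stalk protein that also binds the mitochondrial RNA polymerase, had 180 ± 12.2 (SD, n = 4) in WT and 145 ± 42.4 (SD, n = 4) in KO (limma adjusted p = 0.16). Mrps12, a protein of the decoding centre, had 84.9 ± 21.6 (SD, n = 4) and 61.8 ± 32.8 (SD, n = 4), and rested on 6 reads in Treg KO replicate 3, without which its log2 fold change moved from -0.71 to -0.08. Of the 3 genes related to bacterial S18, Mrps18c had a log2 fold change of -0.47 ± 0.18 (SE), Mrps18a one of -0.19 ± 0.11 and Mrps18b one of 0.08 ± 0.14, and none of the 3 passed (limma adjusted p = 0.0809, 0.23 and 0.71). Mrps18c passed without Treg KO replicate 3 (-0.63, limma adjusted p = 0.0215), and Mrpl12 without Treg KO replicate 2 (-0.51, limma adjusted p = 0.0309). Mrps18c also passed in DESeq2 (-0.47, adjusted p = 0.046) and with the GC trend removed (-0.61, limma adjusted p = 0.0264). Mrps30 stood at -0.19 ± 0.09 (SE), Mrps27, a protein with pentatricopeptide repeats, at -0.22 ± 0.13, Mrpl36 at -0.36 ± 0.17 and Mrps36 at -0.39 ± 0.20, none of which passed. With the GC trend removed Mrps30 did pass (-0.40, limma adjusted p = 0.0215). At the ends of the order per kb, Mrpl24 stood at -0.01 ± 0.08 (SE), Mrpl52 at -0.30 ± 0.30, Mrpl47 at 0.33 ± 0.16 and Mrpl17 at -0.04 ± 0.12. Mrpl47 passed only without Treg KO replicate 4 (0.455, limma adjusted p = 0.0487).

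Counted by separation of the groups, 14 of the 77 genes (18.2%) had Treg KO libraries that did not overlap Treg WT libraries, against 26.2% of all genes tested. In 12 of the 14 the KO libraries were the lower ones. Here and for the separate groups below, all genes were counted in either direction only, so the splits by direction have no such share beside them.

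Tconv of KO animals were compared with Tconv of WT animals, cells that make little Foxp3. None of the 77 genes passed in limma, edgeR or DESeq2, against 0.681% of all genes tested in limma (0.292% higher and 0.389% lower). An unadjusted p under 0.05 in limma was found for 2 of the 77, beside 1358 of all 11314 genes tested. The median log2 fold change was -0.05 and 65 of 77 estimates (84.4%) lay within 0.25 of no change, against 72.2% of all genes tested. These 2 were Mrpl55 (-0.64 ± 0.21 SE, limma adjusted p = 0.22) and Mrpl34 (-0.91 ± 0.35 SE, limma adjusted p = 0.32), named after their values were seen. In 10 of the 77 genes the Tconv KO and WT libraries did not overlap, against 16.3% of all genes tested, with KO below in 9 and above in Mrpl41.

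Whether the genotype difference differed between Treg and Tconv was tested as an interaction. None of the 77 genes passed in limma, edgeR or DESeq2, against 0.15% of all genes tested in limma (0.0354% higher and 0.115% lower). At an unadjusted p under 0.05 in limma there were 5 of the 77, beside 963 of all 11314 genes tested. The 5 were Mrps24 (-0.80 ± 0.24 SE, limma adjusted p = 0.32), Mrpl30 (-0.44 ± 0.15), Mrpl50 (0.48 ± 0.17), Mrpl23 (-0.78 ± 0.33) and Mrpl48 (-0.76 ± 0.33, limma adjusted p = 0.55). A difference between the cell types in the genotype effect was therefore not shown for any gene of the family.

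Treg and Tconv of WT animals were compared for the level that each cell type keeps. Of the 77 genes, 62 (80.5%) lay within 0.25 of no difference, against 59.8% of all genes tested, the median log2 difference was -0.03, and 1 gene passed against 18.1% of all genes tested (10.0% higher and 8.06% lower in Treg). With only the groups compared, 5 genes (6.49%) passed against 35.3% of all genes, with a correlation of adjacent sample numbers 3 (3.90%) against 23.6%, and with edgeR or DESeq2 2 (2.60%) against 20.6% and 23.1%. That gene, Mrpl45 (chromosome 11, 97315716 to 97329920, plus strand), encodes the protein that holds the mitochondrial ribosome to the inner membrane. It had 169, 180, 170 and 181 normalized read counts in Treg WT and 110, 125 and 127 in Tconv WT. The groups did not overlap (1.44-fold, log2 difference 0.53 ± 0.11 SE, limma adjusted p = 0.00198), and the call was kept under each of the 20 other settings run for it. A pseudogene, Gm11594, overlaps Mrpl45 on the opposite strand. In KO animals Mrpl45 had 178, 163, 205 and 160 in Treg and 149, 126, 144 and 146 in Tconv, again without overlap (log2 difference 0.32 ± 0.10 SE, limma adjusted p = 0.0220). Of the marker genes of other cells, 1 of 2 B cell genes was higher in Treg WT than in Tconv WT (Cd79b, log2 difference 3.84). The other B cell gene stood at -0.74 and did not pass. Of 4 CD8 T and NK cell genes 3 were lower, with a median of -2.71 over the 4, and 1 of 1 myeloid genes was lower (-2.64). In KO these were 3.57 for Cd79b, -0.27 for the other B cell gene, 3 of 4 with a median of -2.57, and -2.47 for the myeloid gene. The 1 erythroid and platelet gene tested was lower in KO (-1.05) and did not pass in WT (-0.14). The part of such cells in either comparison of Treg with Tconv was not tested. The Treg and Tconv libraries of WT animals did not overlap in 14 of 77 genes (18.2%), 8 higher and 6 lower in Treg, against 41.1% of all genes tested.

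In KO animals, which share the Treg KO libraries with the first comparison, 15 of 77 genes (19.5%) differed between Treg and Tconv, against 31.4% of all genes tested (15.8% higher and 15.6% lower in Treg). With a correlation of adjacent sample numbers in the fit 24 genes (31.2%) passed against 40.3% of all genes, with only the groups compared 5 (6.49%) against 18.0%, and after thinning 8 (10.4%) against 25.3%. The 5 higher in Treg were Mrpl32 (log2 difference 0.55 ± 0.11 SE), Mrpl50 (0.50 ± 0.11), Mrpl13 (0.34 ± 0.11), Mrpl45 and Mrpl39 (0.28 ± 0.10). The 10 lower were Mrps24 (-0.83 ± 0.16), Mrpl48 (-0.75 ± 0.22), Mrpl23 (-0.64 ± 0.22), Mrpl33 (-0.51 ± 0.13), Mrpl27 (-0.51 ± 0.18), Mrpl30 (-0.50 ± 0.10), Mrps27 (-0.45 ± 0.13), Mrps30 (-0.29 ± 0.09), Mrpl9 (-0.25 ± 0.07) and Mrpl49 (-0.25 ± 0.08). The median over the family was -0.11 and that of all genes -0.01. Treg KO and Tconv KO libraries did not overlap in 13 of 77 genes (16.9%), 5 higher and 8 lower in Treg, against 24.1% of all genes.

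Mrps27 illustrates a call of that comparison. It had 76.9, 81.3, 81.9 and 80.2 in Treg KO and 90.9, 121, 116 and 114 in Tconv KO, without overlap. Mrpl32, Mrpl50, Mrps24 and Mrpl30 passed in each of the 21 other settings. Leaving out Tconv KO replicate 3 took the count from 15 to 9, the calls of Mrpl23 (limma adjusted p = 0.13), Mrpl27 (0.10), Mrpl39 (0.12), Mrpl48 (0.0562), Mrpl49 (0.058) and Mrps30 (0.0693) being lost. Over the 8 fits that left out 1 KO library, Mrpl13, Mrpl27 and Mrpl39 lost their calls in 5 each, Mrpl23 in 4, Mrpl49 and Mrps30 in 3, Mrpl45 in 2 and Mrpl48 in 1. The Mrpl45 call was lost without Treg KO replicate 3 (limma adjusted p = 0.0543) or Tconv KO replicate 2 (0.0697).

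Summed over the 77 genes, the normalized read count was 10884 ± 95.7 (SD, n = 4) in Treg WT and 9952 ± 574 (SD, n = 4) in Treg KO. The 4 WT sums lay between 10750 and 10969 and the KO sums between 9094 and 10295, the lowest being replicate 3. In Tconv the sums were 11005 ± 269 (SD, n = 3) in WT and 10512 ± 370 (SD, n = 4) in KO, ranging from 10823 to 11315 and from 9972 to 10765. In both cell types all KO sums lay below all WT sums on this scale. Per 1e6 of each library's own sum, the Treg groups stayed apart (1841 to 1911 in WT, 1601 to 1802 in KO) and the Tconv groups overlapped (1823 to 1916 in WT, 1733 to 1874 in KO). Less RNA per cell and fewer cells of a kind cannot be told apart in bulk samples. The ratio of large to small subunit sums stayed between 1.92 and 2.23 in the 15 libraries.

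**Figure D4:**
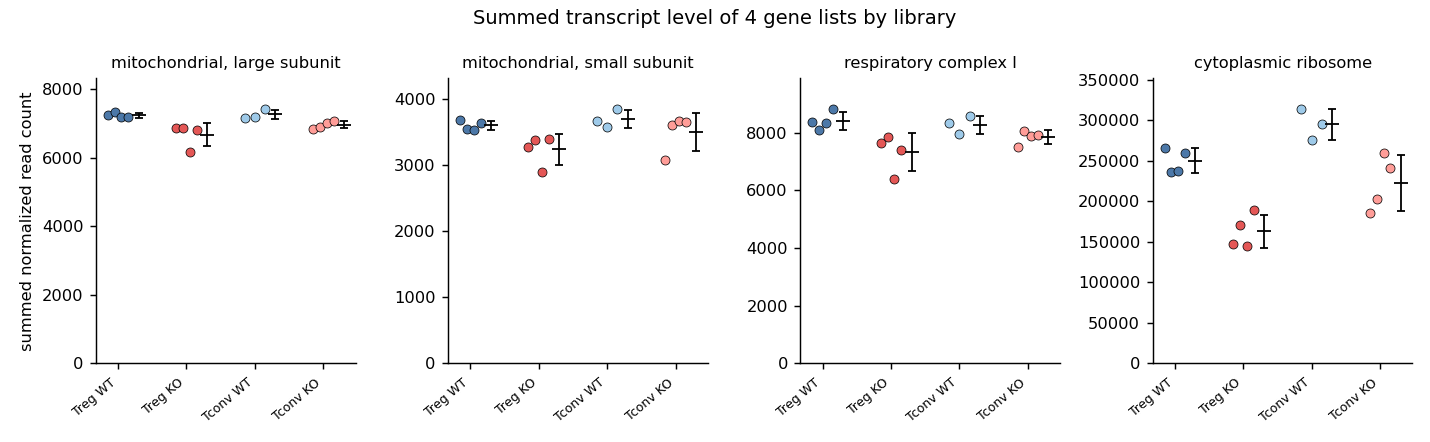
Summed normalized read count (vertical axis, from 0) of the large and small subunit genes, of respiratory complex I and of the cytoplasmic ribosome in each library, with the group mean and SD. The mitochondrial sums in Treg KO lie a little under those in Treg WT, whereas the cytoplasmic sum is 249734 in Treg WT and 162796 in Treg KO on average.

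The ribosomal proteins of the cytoplasm were set beside the family. Of 81 tested of 84 in the table, 59 fell and 1 rose in Treg KO against WT, with a median log2 fold change of -0.73, beside 9 and 2 of 77 and -0.16 in the mitochondrial family. Of the 81, 74.1% passed, against 21.5% of all genes tested. In Tconv, 16 fell and 0 rose (19.8%, against 0.681% of all genes tested, median -0.46). The cytoplasmic sum was 21.5 to 24.3 times the mitochondrial sum in Treg WT and 14.5 to 18.4 times in Treg KO. The same ratio was 25.5 to 28.8 in Tconv WT and 18.6 to 24.2 in Tconv KO, so that WT and KO did not overlap in either cell type. Of the respiratory complex I subunits, many of whose partners are made by the mitochondrial ribosome, 13 of 36 tested fell and 1 rose in Treg (38.9% in all, median -0.26). In Tconv 0 passed (median -0.10). Many of the cytoplasmic genes have near-identical pseudogene copies, which the counting could split. The part of such copies in these fold changes was not tested.

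**Figure D5:**
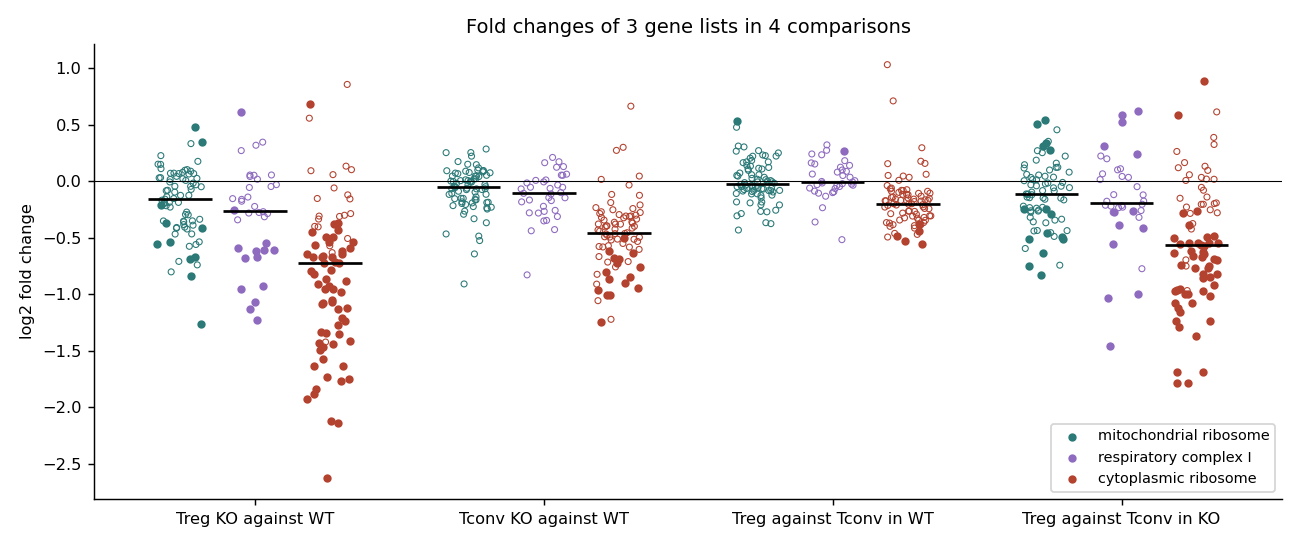
Log2 fold change (vertical axis) of each gene of the mitochondrial ribosome (77), respiratory complex I (36) and the cytoplasmic ribosome (81) in 4 comparisons. Filled dots passed the test, open dots did not, and black bars are medians; in Treg KO against WT the medians are -0.16, -0.26 and -0.73.

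Other proteins of the mitochondrial ribosome carry names outside the Mrp series. Of 6 listed in the table, 3 fell in Treg KO against WT and 0 rose. Gadd45gip1, a large subunit protein at the tunnel exit, had 159 ± 15.1 (SD, n = 4) in WT and 102 ± 20.2 (SD, n = 4) in KO (log2 fold change -0.66, limma adjusted p = 0.00700). Ict1, a peptidyl-tRNA hydrolase built into the large subunit, had 127 ± 13.8 (SD, n = 4) and 88.4 ± 11.1 (SD, n = 4), a log2 fold change of -0.53 (limma adjusted p = 0.0175). Aurkaip1, a small subunit protein, had 261 ± 20.6 (SD, n = 4) and 213 ± 21.1 (SD, n = 4), a log2 fold change of -0.29 (limma adjusted p = 0.0362). In Tconv 0 of the 6 passed, against 0.681% of all genes tested.

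Factors that assemble the mitochondrial ribosome or modify its RNA held 4 of 27 tested that fell in Treg and 0 that rose (median -0.12). That is 14.8% of the list, below the 21.5% of all genes tested. Those that fell were Mpv17l2 (log2 fold change -0.70), an assembly factor of the inner membrane, Malsu1 (-0.57), which keeps the immature large subunit from joining, Spg7 (-0.48), a subunit of the m-AAA protease that cuts the Mrpl32 precursor, and Wbscr16 (-0.37). Afg3l2, another subunit of that protease, had a log2 fold change of -0.03 ± 0.06 (SE) and did not pass. The Mrpl32 call, higher in Treg KO, was lost in 12 of the 21 other settings run.

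Translation factors of the mitochondrion moved both ways, with 2 of 16 higher and 2 lower (median -0.01). Mtif2 (0.31), the initiation factor that brings the initiator tRNA, and Gfm1 (0.25), an elongation factor, were higher, while Tufm (-0.42), the elongation factor that delivers tRNA, and Mettl17 (-0.40) were lower. Among 20 mitochondrial aminoacyl-tRNA synthetases and related genes 5 fell and 1 rose (30.0% in all, against 21.5% of all genes tested, median -0.17). Lars2 (-0.98) and Cars2 (-0.60) led the falls, and Rars2 (0.42) was higher. In Tconv 0 of these 3 lists' genes passed, against 0.681% of all genes tested.

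Transcript properties moved with the fold change. Across the 77 genes, the log2 fold change of Treg KO against WT correlated with the GC content of the transcript at a Pearson r of -0.36, and across 11223 genes tested at -0.37. With log2 transcript length r was 0.31 in the family and 0.21 in all genes. These are correlations across genes, which share the libraries and are not independent replicates. The 77 transcripts were short, with a median of 1288 bases against 2992 for all genes tested, and near in GC content (50.7% against 50.1%). With the length trend removed the median of the family was -0.06 and 7 genes passed, 2 higher and 5 lower. Mrpl32 was not among them (log2 fold change 0.315, limma adjusted p = 0.0674), and Mrps21 had a log2 fold change of 0.02 (limma adjusted p = 0.93).

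Of the 77 genes, 41 overlap another annotated gene and 22 a protein-coding gene of the table, 20 of these on the opposite strand. The sources used here do not say whether counting used strand, so reads of such pairs cannot be told apart. Rab6a, opposite to Mrpl48, had a log2 fold change of 0.04 ± 0.10 (SE) in Treg KO against WT. Mrpl23 and Mrpl48 also have annotated pseudogene copies, so that their values are uncertain where reads could fit both.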

How the data were processed

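The authors deposited 1 table with a normalized signal per gene and library, which is the gene count divided by 1 size factor per library. Whole reads were recovered for 100% of its values within a tolerance of 0.001. Per the submitters' processing notes, TopHat and build mm10 were used. The sources used here name no version, read counter or annotation. Per the labels' protocols, libraries were made with an Illumina TruSeq kit from 10 ng of total RNA.

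Values were analysed as log2(value + 1) in R 4.3.3 with limma 3.58.1 (trended prior, 4 group means, all 15 libraries, 5 two-sided contrasts). The 11314 genes that reached 10 in 3 or more libraries were tested, with Benjamini-Hochberg adjustment over all of them and a threshold of 0.05. A fold change on this scale understates that of low genes. Replicates were numbered in accession order. The genes and lists were chosen with earlier results of these data known. Named are genes that passed, up to 10 in each direction, the 3 highest and lowest per kb, 11 genes of known role, and up to 4 of each other list by p. Lengths and GC content come from the GENCODE annotation of mm10, with 1 principal transcript per gene. Alternatives were edgeR 4.0.16 and DESeq2 1.42.0 on whole reads, other pseudocounts, filters and scalings, only the groups compared, a correlation of adjacent sample numbers, GC or length trends removed, each library left out and, added after seeing the data, reads thinned to 2635841 per library. The fit was tested on simulated data.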

Additional observations from a re-analysis of the deposited data

Results flagged for a closer look

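Of 90 tests for a library standing apart from the other 3 of its group, over 29 genes and the summed level, 9 found one, and chance gives about 1 in 20. Treg KO replicate 3, the shallowest library, was lowest for Mrpl52 (77.6, the others 245 to 250), for Mrps12 (12.9, the others 73.6 to 82.5) and for the summed level of the 77 genes (9094, the others 10171 to 10295). In Treg WT, replicate 1 was lowest for Mrpl50 (119, the others 136 to 138) and replicate 3 for Mrpl9 (362, the others 390 to 395). In Tconv KO, replicate 2 was highest for Mrpl32 (146, the others 124 to 127) and for Mrpl33 (140, the others 106 to 110) and lowest for Mrps30 (130, the others 153 to 158). Replicate 4 of that group was lowest for Mrps18a (96.7, the others 110 to 111).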

How the results depend on the processing

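No paired analysis was possible because the labels give the groups no shared replicate numbers. Deviations of Treg and Tconv samples with adjacent numbers correlated at 0.484, 0.334, 0.208 and 0.541 in KO and 0.142, 0.210 and 0.016 in WT, and a fit with that correlation (0.248) was run as an alternative. In Treg KO against WT, 11 genes passed, but 7 without a filter (12.9% of all genes passed), 6 with only the groups compared (14.4%) and 7 with the length trend removed (18.8%), against 21.5% in the reported fit. Leaving out 1 Treg library gave 6 to 16, with 6 without Treg WT replicate 1, 2 or 4 and 7 without replicate 3. Mrps21 turned from -0.37 to 0.0178 with the length trend removed. In Treg against Tconv of WT, 1 gene passed, but 2 with edgeR, 2 with DESeq2, 5 with only the groups compared, 3 with the correlation and 2 after thinning (20.6%, 23.1%, 35.3%, 23.6% and 15.4% of all genes, against 18.1%), and 1 in every fit that left out a library. In Treg against Tconv of KO, 15 passed, but 5 with only the groups compared, 24 with the correlation and 8 after thinning (18.0%, 40.3% and 25.3% of all genes, against 31.4%), and 9 to 17 with 1 library left out. In the Tconv comparison and the interaction 0 passed under every setting run. The cause of these shifts was not tested, beyond the smaller number of samples, or the larger number of genes without a filter, that the settings bring. In Treg KO replicate 3, the shallowest library, Mrpl23 rested on 17 reads and Mrps12 on 6. Mrps12 had 54 to 68 reads in the other Treg KO libraries. The part of depth in these values was not tested.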

Other observations

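Other lists of nuclear genes for mitochondria were read against the 21.5% of all genes tested that passed in Treg KO against WT. Of 12 genes of the mitochondrial stress response, 5 (41.7%) fell and 0 rose (median log2 fold change -0.24): Hspe1 (-0.83), the co-chaperonin of the matrix, Phb (-0.76) and Phb2 (-0.43), the prohibitins of the inner membrane, and the matrix proteases Clpp (-0.61) and Lonp1 (-0.32). Hspe1 was 366 ± 26.8 (SD, n = 4) in Treg WT and 208 ± 43.8 (SD, n = 4) in Treg KO, and it was the 1 gene of the list that also fell in Tconv (log2 fold change -0.80, limma adjusted p = 0.0114). Hspd1, the chaperonin that works with it, had a log2 fold change of -0.12 in Treg and did not pass (limma adjusted p = 0.57).

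Of 14 tested regulators of nuclear genes for mitochondria, 3 rose and 3 fell in Treg KO (42.9% in all, median 0.0025). Those that rose were Gabpa (0.31), Gabpb1 (0.35) and Gabpb2 (0.21), the subunits of the ETS factor GABP. Those that fell were Esrra (-0.59), Pprc1 (-0.43) and Ddit3 (-0.43). Myc was higher in Treg than in Tconv of WT animals (766 ± 59.0, n = 4, against 373 ± 22.4, n = 3, SD). Of 14 genes for mitochondrial DNA replication and transcription, Mterf1a rose (0.49) and Polg, the DNA polymerase, fell (-0.38), 14.3% in all, with a median of -0.08.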
